A study of Mus musculus with 6 samples.

Results

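The enzymes described here are 10 proteins of glycolysis, namely Hk1, Hk2, Gpi1, Pfkl, Pfkp, Aldoa, Gapdh, Pgk1, Pkm and Ldha, and they were chosen by gene name from the raw count table. The names matched 11 of the 56941 rows, because Aldoa stands under 2 gene identifiers. All 10 enzymes passed edgeR's default filter on low counts, as did 32149 genes in all. RNA was measured in hair follicle stem cells (HFSCs) sorted as CD34+/α6-integrin+ cells from the dorsal skin of female mice at postnatal day 68 (PD68), with 3 libraries labelled WT and 3 labelled Dab2-cKO. WT mice were K14CreER-/- Dab2 fl/fl and Dab2-cKO mice were K14CreER+/- Dab2 fl/fl, on the strain B6;129S4-Dab2tm1Cpr/J. Both genotypes thus carried the floxed Dab2 alleles, and both received tamoxifen at 75 mg/kg by intraperitoneal injection on 5 consecutive days. The Cre recombinase is driven by the K14 promoter, so the allele can be deleted in keratinocytes with an active K14 promoter and not in other cells of the skin. The comparison asks how the loss of Dab2, an adaptor protein of endocytosis and signaling, changes the RNA of HFSCs.

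Glycolysis splits glucose into pyruvate in the cytosol and yields ATP without oxygen. Hexokinases trap glucose in the cell, phosphofructokinase sets the pace at its committed step, and lactate dehydrogenase turns pyruvate into lactate while it renews the NAD+ that the pathway consumes. HFSCs are known for high lactate dehydrogenase activity, and Ldha is used as a marker of their metabolism. Several steps exist as isozymes from different genes, of which Pfkm, Pgam2, Eno3 and the glycogen phosphorylase Pygm are the forms known from skeletal muscle.

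The targeted gene, Dab2, had normalized counts of 309 to 338 in the WT-labelled libraries and of 1300 to 1434 in the Dab2-cKO-labelled ones (log2 fold change 2.08, with a standard error, SE, of 0.08, adjusted p = 3.04e-34 in edgeR), so it was higher where the label says it was deleted. Counts over the whole gene do not show whether the floxed exons were read. Directions are given by library label, and the columns named for the floxed alleles were assigned to Dab2-cKO by the series title. The libraries held 7040032 to 11696457 counts, and mitochondrial genes took 13.0% to 14.4% of them in the WT-labelled libraries and 19.1% to 20.3% in the Dab2-cKO-labelled ones. For annotated rRNA these shares were 15.3% to 17% (WT) and 22.3% to 24.2% (Dab2-cKO), and mitochondrial rRNA is counted in both classes. For the top 100 genes by count they were 33.1% to 33.9% (WT) and 44.5% to 46.6% (Dab2-cKO). Of the markers of basal keratinocytes and the bulge, 6 of 10 were higher, with Krt5, Krt14, Krt15 and both surface proteins of the sort (Cd34 and Itga6) among them, and Sox9, Lhx2 and Lgr5 were lower in the Dab2-cKO-labelled libraries. The remaining gene of the list, Tcf3 (lower), is the E2A gene under this symbol, and the bulge factor often called TCF3 is encoded by Tcf7l1, so it is no bulge marker here. Of these, Krt5, Krt14 and Krt15 (log2 fold changes 0.62, 0.85 and 0.84) are named by the rule for named genes and the others were chosen after their values were seen. Cd34 was at 1.80 and Itga6 at 0.55, while Sox9, Lhx2 and Lgr5 were at -1.45, -1.43 and -1.32. The median of the list, Tcf3 counted, was 0.58, against 1.83 for the endothelial and 1.57 for the fibroblast markers. Which cells gave the Cd34 counts was not tested. Markers of other cells were present in both groups. The 10 skeletal muscle markers summed to 23299 to 27171 normalized counts in the WT-labelled libraries and to 127918 to 131081 in the Dab2-cKO-labelled ones, and 9 of them were higher. The 10 fibroblast markers, all higher, summed to 102281 to 123613 and to 356574 to 376341. The 8 endothelial markers, all higher, summed to 1539 to 1726 and to 5416 to 5519. Of 10 immune markers 8 were higher, with sums of 1876 to 2073 and of 8078 to 8309, and of 6 erythrocyte markers 5 were higher, with sums of 258 to 297 and of 1481 to 1625. Markers of suprabasal epidermis were higher for 8 of 10 and lower for 1 of 10 (Ivl, chosen likewise). All 10 proliferation markers, all 8 melanocyte markers and all 9 markers of hair shaft and inner root sheath found in the table were lower. The hair shaft and inner root sheath markers summed to 215805 to 259758 (WT) and to 3021 to 3070 (Dab2-cKO), with a median log2 fold change of -6.39. The proliferation markers summed to 10977 to 11978 (WT) and to 3489 to 3572 (Dab2-cKO), and the melanocyte markers to 3702 to 4066 and to 1283 to 1313. No marker of these lists was at 0 in all libraries.

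Among the 10 enzymes, 8 were higher in the Dab2-cKO-labelled libraries and 0 were lower at an adjusted p under 0.05 (edgeR's quasi-likelihood test, Benjamini-Hochberg adjustment over all genes tested). Of all genes tested, 28.2% passed, with 16.8% higher and 11.5% lower, and of the 10522 nuclear protein-coding genes whose mean normalized count reached 100, a class all 10 enzymes belong to, 37.4% were higher and 23.1% lower. The normalized counts in the Dab2-cKO-labelled libraries lay above all those labelled WT for all 10 enzymes, against 20.6% of all genes tested, while 17.7% of all genes lay below. The median log2 fold change was 0.87 for the 10 enzymes, -0.02 for all genes tested and 0.09 for the abundant protein-coding genes. Scaling by library size alone gave Pfkl and Pfkp the opposite sign and moved the median of the enzymes to 0.44 and that of all genes to -0.45. Such a change of scaling shifts all genes by about the same amount, so the distance of 0.89 between these medians stays by construction. With that scaling, all calls split into 2686 higher and 11168 lower, against 5387 and 3682 in the main comparison and 4281 and 5561 with upper-quartile scaling. In bulk RNA, fewer cells of a type and less RNA per cell cannot be told apart, and the part of the other cell types in the values of these enzymes was not tested.

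**Figure D1:**
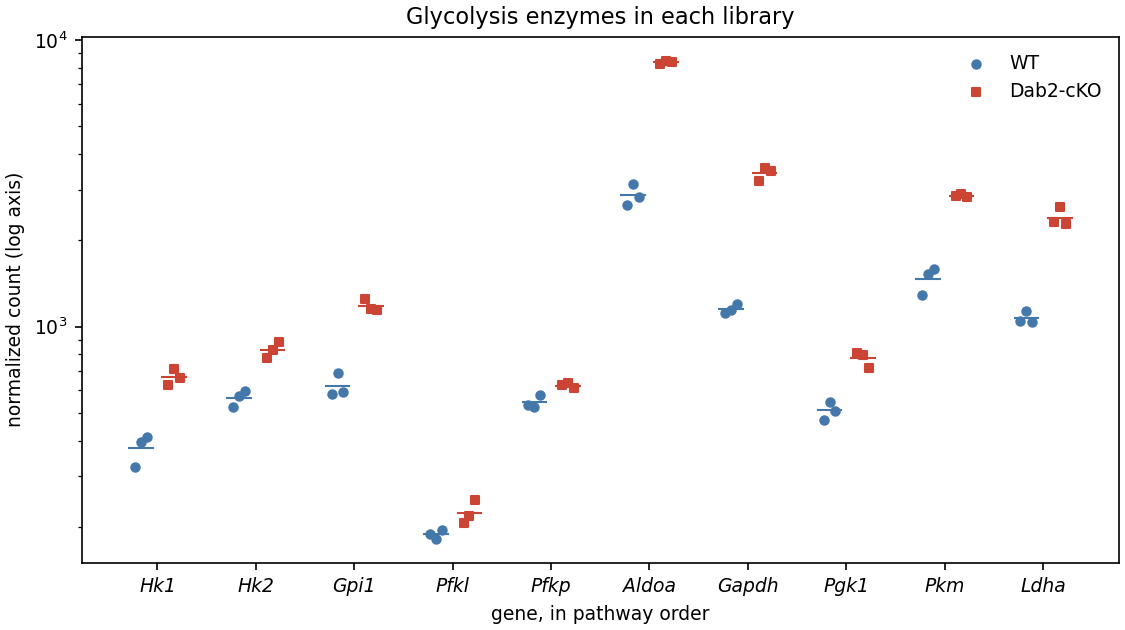
Normalized count (log axis) of each of the 10 enzymes in the 3 libraries labelled WT (circles) and the 3 labelled Dab2-cKO (squares), with the mean of each group as a line. For every enzyme the squares lie above the circles, with the narrowest gaps for Pfkl and Pfkp, and since counts are not divided by gene length, heights compare libraries and not genes.

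**Figure D2:**
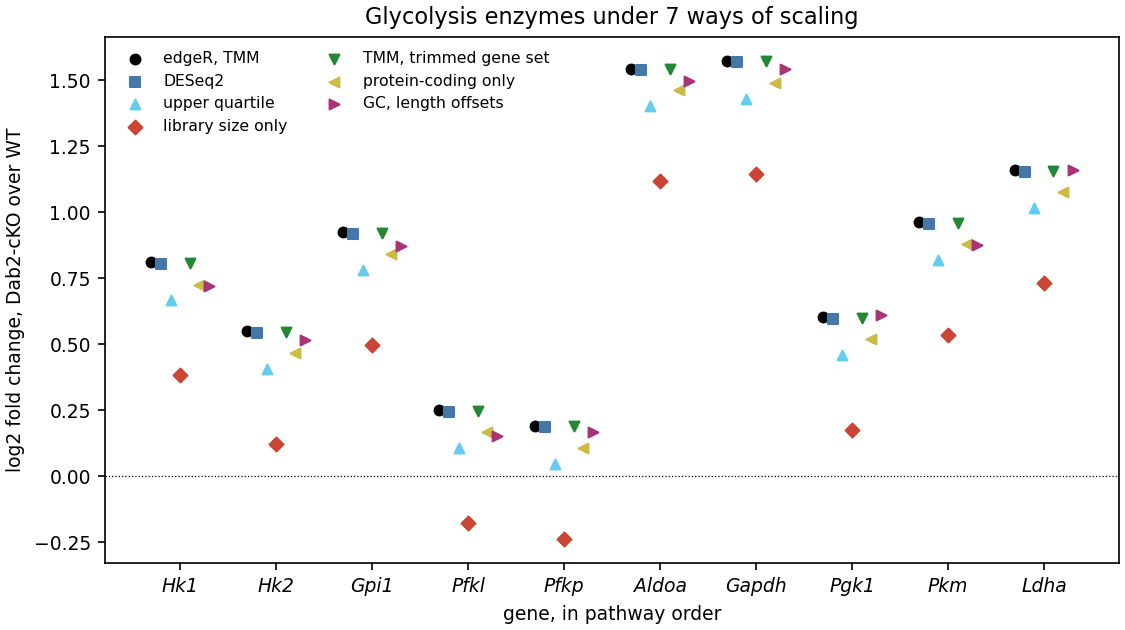
Log2 fold change of the 10 enzymes (libraries labelled Dab2-cKO over those labelled WT) under 7 ways of scaling or fitting. The points of 8 enzymes stay above 0 under each, while Pfkl and Pfkp fall to -0.18 and -0.24 with library size alone.

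The stretches around the annotated gene starts are shown for the enzymes with the 3 largest fold changes, Gapdh, Aldoa and Ldha, and for Pfkp, which had the smallest. Each runs 5′ to 3′ on the strand of the gene, from 250 bases before to 50 bases after the start of the Ensembl canonical transcript in GRCm39. Capitals mark ACGTG or its reverse complement CACGT, the core of the element bound by hypoxia-inducible factors, which regulate many glycolysis genes. The palindrome CACGTG, also known as an E-box, holds both and counts as 2 overlapping matches. The Gapdh window is chr6:125142687-125142986 (minus strand), that of Aldoa chr7:126398377-126398676 (minus strand), that of Ldha chr7:46495013-46495312 (plus strand) and that of Pfkp chr13:6698921-6699220 (minus strand).
Gapdh: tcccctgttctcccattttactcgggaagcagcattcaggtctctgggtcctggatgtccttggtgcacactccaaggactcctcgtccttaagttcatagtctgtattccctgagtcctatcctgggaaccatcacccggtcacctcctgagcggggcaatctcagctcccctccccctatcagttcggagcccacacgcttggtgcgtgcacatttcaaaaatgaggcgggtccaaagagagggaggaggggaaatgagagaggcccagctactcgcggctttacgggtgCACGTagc
Aldoa: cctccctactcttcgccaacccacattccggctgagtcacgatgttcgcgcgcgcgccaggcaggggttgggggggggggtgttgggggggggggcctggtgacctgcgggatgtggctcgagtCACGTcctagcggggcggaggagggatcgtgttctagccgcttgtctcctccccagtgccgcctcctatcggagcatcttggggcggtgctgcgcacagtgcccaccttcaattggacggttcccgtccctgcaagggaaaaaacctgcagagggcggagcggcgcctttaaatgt
Ldha: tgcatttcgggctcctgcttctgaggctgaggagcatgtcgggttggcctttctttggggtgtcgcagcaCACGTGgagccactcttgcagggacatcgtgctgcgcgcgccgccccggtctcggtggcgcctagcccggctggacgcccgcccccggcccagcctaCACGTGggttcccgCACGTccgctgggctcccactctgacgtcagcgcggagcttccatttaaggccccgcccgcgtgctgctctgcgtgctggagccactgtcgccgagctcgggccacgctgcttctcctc
Pfkp: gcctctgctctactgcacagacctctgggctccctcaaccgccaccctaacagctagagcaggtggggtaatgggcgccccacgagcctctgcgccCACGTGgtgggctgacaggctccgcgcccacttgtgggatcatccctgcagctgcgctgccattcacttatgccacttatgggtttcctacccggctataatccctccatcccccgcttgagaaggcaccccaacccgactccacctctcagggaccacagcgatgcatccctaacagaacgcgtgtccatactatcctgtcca

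A match was found in the windows of 6 of the 10 enzymes (60.0%), of 6 of 18 other glycolytic isozymes (33.3%) and of 4506 of 21757 protein-coding genes (20.7%). The palindrome was in 2 of the 10 (Ldha and Pfkp) and in 7.82% of all windows. Ldha had 5 matches, the first base of each at -180, -179, -83, -82 and -69 from the start, and Hk2, Pgk1 and Pfkp had 2 each. Aldoa had 1 match at -126 and Gapdh 1 at 43, inside the transcribed part. The letters were not in the windows of Hk1, Gpi1, Pfkl and Pkm. The median GC content was 61.5% for the 10 enzymes and 54.3% for all genes. Of the 8 enzymes that were higher, 5 had a match (Hk2, Aldoa, Gapdh, Pgk1 and Ldha), and of the other 2, Pfkp had one and Pfkl had none, which was not tested.

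The first step is represented by Hk1 and Hk2, and both were higher in the Dab2-cKO-labelled libraries. Hk1 (ENSMUSG00000037012, chr10:62104621-62215687, minus strand), the hexokinase of most tissues that binds mitochondria, had normalized counts of 323, 396 and 412 in the WT-labelled libraries and of 624, 709 and 660 in the Dab2-cKO-labelled ones. The groups did not overlap, and the lowest Dab2-cKO-labelled library was above the highest WT-labelled library by more than the range within either group. The mean rose from 377 ± 47.5 to 664 ± 42.7 (SD, n = 3 each), a log2 fold change of 0.81 (SE 0.09, adjusted p = 6.32e-12 in edgeR). Hk2 (ENSMUSG00000000628, chr6:82699740-82751469, minus strand), the inducible hexokinase of muscle and growing cells, had 526, 572 and 596 against 776, 828 and 881. These groups, here and elsewhere given with WT first where no label stands beside them, did not overlap either. Its log2 fold change was 0.55 (SE 0.08, adjusted p = 2.12e-08 in edgeR), and with library size alone as the scaling it was 0.12 and no longer passed (adjusted p = 0.147 in edgeR). Per kb of transcript, Hk2 made up 45.2% ± 1.7 of the sum of both in the WT-labelled libraries and 40.7% ± 1.6 in the Dab2-cKO-labelled ones (SD, n = 3 each). The exact 2-sided permutation test gave p = 0.1, the smallest that 3 against 3 libraries allow, and 0.133 after Benjamini-Hochberg adjustment over the 4 isozyme shares tested. These shares rest on canonical lengths of 4280 bases for Hk1 and 7796 for Hk2, while the merged exons come to 8773 and 8269. Which of Hk1 and Hk2 is the larger per kb depends on the length used.

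Gpi1 (ENSMUSG00000036427, chr7:33900755-33929780, minus strand), which turns glucose-6-phosphate into fructose-6-phosphate, had normalized counts of 582, 691 and 591 in the WT-labelled libraries and of 1243, 1151 and 1146 in the Dab2-cKO-labelled ones. No library of one group came near the other. The mean went from 621 ± 60.1 to 1180 ± 55.1 (SD, n = 3 each), a log2 fold change of 0.92 (SE 0.08, adjusted p = 8.22e-17 in edgeR).

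The phosphofructokinases of the list, Pfkl and Pfkp, did not pass the test. Pfkl (ENSMUSG00000020277, chr10:77818084-77845922, minus strand), the liver form of the enzyme of the committed step, had 188, 181 and 195 against 207, 217 and 248. Its log2 fold change was 0.25, with a 95% interval from 0.01 to 0.49 (adjusted p = 0.129 in edgeR). Pfkp (ENSMUSG00000021196, chr13:6629798-6698970, minus strand), the platelet form, had 533, 524 and 577 against 626, 633 and 609. The Dab2-cKO-labelled libraries lay above those labelled WT for both genes after TMM scaling, by narrow margins. The log2 fold change of Pfkp was 0.19, with a 95% interval from 0.03 to 0.36 (adjusted p = 0.0727 in edgeR), and with library size alone it was -0.24 and passed in the other direction (adjusted p = 0.00681 in edgeR). Exons of Pitrm1 on the other strand cover 42.5% of the canonical transcript of Pfkp, and the strand setting of the counting is not given in the sources used here.

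The muscle form Pfkm, which was outside the chosen list, was higher. It had normalized counts of 495, 537 and 558 in the WT-labelled libraries and of 2042, 1918 and 1966 in the Dab2-cKO-labelled ones, a log2 fold change of 1.90 (SE 0.07, adjusted p = 8.24e-34 in edgeR). Per kb of transcript, Pfkp made up 41.5% ± 0.864 of the 3 phosphofructokinases in the WT-labelled libraries and 20.8% ± 0.663 in the Dab2-cKO-labelled ones (SD, n = 3 each; exact 2-sided permutation p = 0.1, the smallest possible, 0.133 after adjustment over the 4 shares). Pfkl went from 15.1% ± 0.495 to 7.89% ± 0.797 and Pfkm from 43.5% ± 1.28 to 71.3% ± 0.915 of the same sum. The summed level of the step was 305 ± 14.3 normalized counts per kb in the WT-labelled libraries and 693 ± 13.3 in the Dab2-cKO-labelled ones. Shares within a library do not depend on the scaling between libraries. The skeletal muscle markers Acta1, Myh4 and Tnnt3 had log2 fold changes of 2.65, 1.89 and 2.62 in the same libraries, and their part in the level of Pfkm was not tested.

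**Figure D3:**
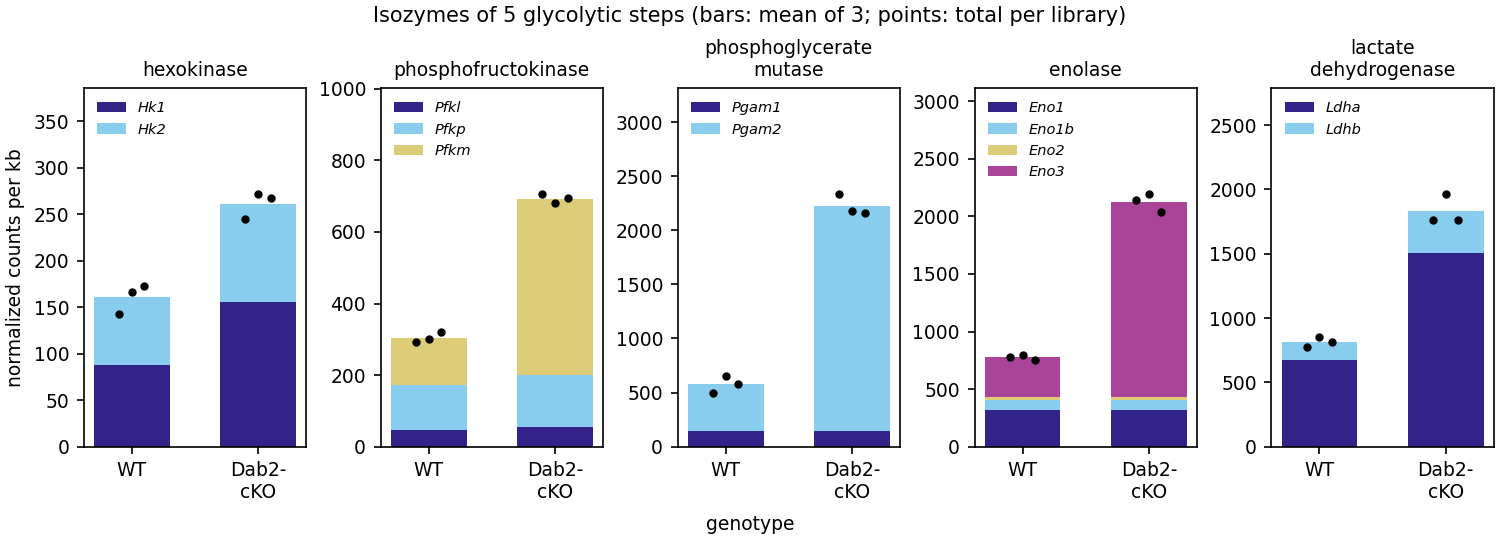
Normalized counts per kb of canonical transcript (vertical axes, each from 0) for the isozymes of 5 glycolytic steps, as stacked bars of group means with the total of each library as points. The phosphofructokinase total rose from 305 to 693 with most of the added height in Pfkm, while Ldha made up 83.1% and 82.5% of the lactate dehydrogenase bars.

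Aldoa and Gapdh, which follow each other in the middle of the pathway, had the largest fold changes of the 10 by their own rows, though Gapdh fell behind Ldha when counted together with its near-identical pseudogenes. Aldoa (ENSMUSG00000030695, chr7:126393822-126399923, minus strand), the aldolase of muscle and most other tissues, cleaves fructose-1,6-bisphosphate into a pair of triose phosphates. Its normalized counts were 2657, 3144 and 2823 in the WT-labelled libraries and 8266, 8474 and 8412 in the Dab2-cKO-labelled ones, so each Dab2-cKO-labelled library held more than 2 times the count of any WT-labelled library. The log2 fold change was 1.54 (SE 0.07, adjusted p = 4.25e-30 in edgeR). A second row named Aldoa (ENSMUSG00000114515) is a locus on the same strand whose exons cover 86.1% of those of Aldoa, so reads in the shared exons cannot be assigned to 1 row alone. That row held 23.9 ± 2.70 and 37.9 ± 0.936 normalized counts (SD, n = 3 each), a log2 fold change of 0.67 that did not pass (adjusted p = 0.101 in edgeR). Aldoa was nearly the whole of its isozyme pool with Aldoc, at 98.9% ± 0.0371 in the WT-labelled libraries and 99.7% ± 0.0424 in the Dab2-cKO-labelled ones per kb of transcript (SD, n = 3 each; exact 2-sided permutation p = 0.1, the smallest possible, 0.133 after adjustment).

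Gapdh (ENSMUSG00000057666, chr6:125135289-125143518, minus strand), which oxidizes glyceraldehyde-3-phosphate and is often used as a reference gene, had 1111, 1141 and 1203 normalized counts in the WT-labelled libraries. It had 3217, 3584 and 3493 in the Dab2-cKO-labelled ones, far outside the range of the other group. The log2 fold change was 1.57 (SE 0.07, adjusted p = 3.87e-30 in edgeR). The table also holds 76 annotated pseudogenes at least 95% identical to Gapdh over 150 bases or more, among which reads could have been divided. Their summed normalized counts were 740, 760 and 874 in the WT-labelled libraries and 658, 636 and 667 in the Dab2-cKO-labelled ones. The pseudogenes together were thus lower where Gapdh was higher, with no overlap between the groups. Gapdh counted together with them had a log2 fold change of 1.04 (SE 0.06, adjusted p = 5.89e-23 in edgeR). Exons on the other strand, of Iffo1, cover 81.5% of the canonical transcript of Gapdh.

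Pgk1 (ENSMUSG00000062070, chrX:105230706-105247305, plus strand), which makes the first ATP of the pathway, had normalized counts of 472, 547 and 509 in the WT-labelled libraries and of 811, 795 and 717 in the Dab2-cKO-labelled ones. The groups were apart, and the log2 fold change of 0.60 (SE 0.08, adjusted p = 3.38e-09 in edgeR) was among the smaller ones of the 8 that passed. Pkm (ENSMUSG00000032294, chr9:59563364-59586663, plus strand), the pyruvate kinase that makes the second ATP, had 1288, 1525 and 1590 against 2855, 2893 and 2839. The Dab2-cKO-labelled libraries lay close together and well above those labelled WT. The log2 fold change of Pkm was 0.96 (SE 0.07, adjusted p = 8.28e-19 in edgeR), and counts per gene do not separate its M1 and M2 splice forms. Pseudogenes near-identical to Gpi1, Pgk1, Pkm or Ldha held counts that came to 0.57% to 2.4% of those of the gene itself in either group. On the other strand, exons of other genes cover 31.6% of the canonical transcript of Pkm, 29.4% of that of Ldha, 24.2% of that of Pfkl and 8.0% of that of Hk1, and if strand was not used, their reads cannot be told apart from those of the enzymes.

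Ldha (ENSMUSG00000063229, chr7:46490899-46505061, plus strand), which turns pyruvate into lactate, had normalized counts of 1048, 1131 and 1041 in the WT-labelled libraries and of 2309, 2606 and 2275 in the Dab2-cKO-labelled ones. Every Dab2-cKO-labelled library had at least 2 times the count of the highest WT-labelled library. The mean was 1073 ± 50.3 and 2397 ± 182 (SD, n = 3 each), a log2 fold change of 1.16 (SE 0.07, adjusted p = 6.75e-23 in edgeR), and over 16 alternative settings it lay between 0.73 and 1.21 and always passed. Ldhb, the heart form, which favours the reverse reaction, was higher as well, from 210 ± 37.1 to 489 ± 16.2 (log2 fold change 1.20, SE 0.11, adjusted p = 8.87e-16 in edgeR). The share of Ldha in the sum of both, per kb of transcript, was 83.1% ± 2.56 in the WT-labelled libraries and 82.5% ± 1.04 in the Dab2-cKO-labelled ones (SD, n = 3 each). The shares of the groups overlapped, and the exact 2-sided permutation test gave p = 0.9 before and after adjustment over the 4 shares. The difference of the means was -0.63 percentage points and ranged from -1.97 to 0.59 with each library left out in turn.

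The genes whose profile over the 6 libraries was most like that of Ldha were Kcnj2, Defb6, Htra1, Nfkbiz and Tmed3. Likeness was measured as the root-mean-square difference in log2 CPM, centred on the mean of each gene, among 10512 protein-coding genes whose mean normalized count reached 100, the 10 enzymes not counted. It was 0.03 for Kcnj2 and 0.05 for Tmed3, against 0.14 for Pkm, the nearest of the other 9 enzymes, 0.15 for Gpi1 and 0.49 for Pfkp, the farthest. With only 2 groups, this measure mostly ranks genes by how close their fold change is to that of Ldha.

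**Figure D4:**
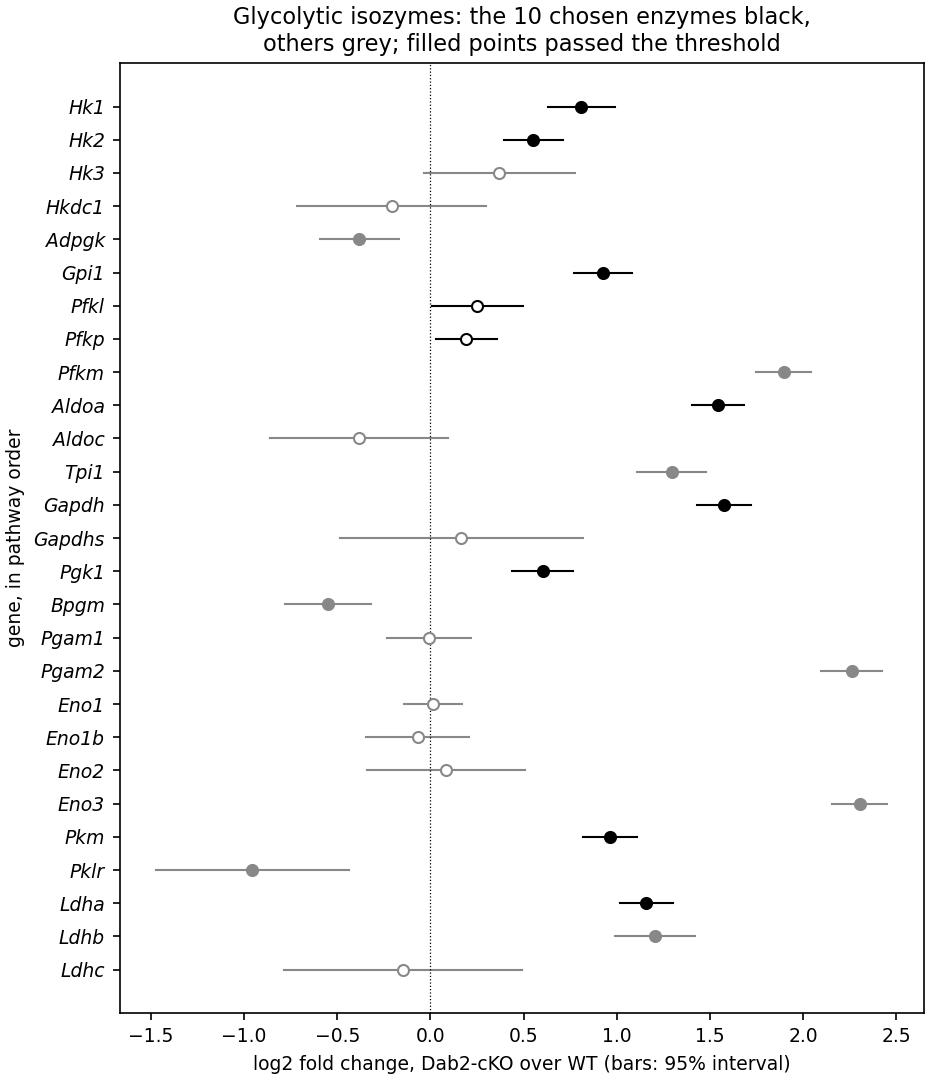
Log2 fold change of the Dab2-cKO-labelled libraries over those labelled WT (horizontal axis, bars for 95% intervals) for the glycolytic isozymes in pathway order, with the 10 chosen enzymes in black and the others in grey. Filled points passed the test, and the values run from 2.30 for Eno3 to -0.96 for Pklr, with Eno1 at 0.01 and Pgam1 at -0.01.

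The enzymes were ranked by level per kb of canonical transcript, and the order depends on that choice of length. Merged exons come to 7160 bases for Gapdh and 2244 for Pgk1, against 1420 and 1825 in the canonical transcripts. The order below holds for canonical lengths only. In the WT-labelled libraries the order was Aldoa (1902 ± 164 normalized counts per kb), Gapdh (811 ± 33.0), Ldha (676 ± 31.7), Pkm (600 ± 64.9), Pgk1 (279 ± 20.5), Gpi1 (214 ± 20.7), Pfkp (126 ± 6.57), Hk1 (88.1 ± 11.1), Hk2 (72.4 ± 4.57) and Pfkl (45.9 ± 1.63). Of the neighbours in this order, Hk1 and Hk2 overlapped over the 3 libraries and the others did not. In the Dab2-cKO-labelled libraries the first 6 kept their places, from Aldoa (5549 ± 70.9) and Gapdh (2416 ± 135) through Ldha (1509 ± 115) and Pkm (1169 ± 11.3) to Pgk1 (424 ± 27.4) and Gpi1 (406 ± 19.0). Hk1 (155 ± 9.98) passed Pfkp (145 ± 2.81), followed by Hk2 (106 ± 6.70) and Pfkl (54.7 ± 5.25). Here Pgk1 overlapped with Gpi1, and Hk1 with Pfkp. Even Pfkl was above the 95th percentile of 1526 chemosensory receptor genes, which skin should hardly express and which reached 14.9 and 13.4 per kb in the groups labelled WT and Dab2-cKO. The 10 enzymes took 0.115% ± 0.003 of all counts in the WT-labelled libraries and 0.195% ± 0.00766 in the Dab2-cKO-labelled ones, a ratio of 1.70. As a share of the counts of nuclear protein-coding genes alone the ratio was 1.96.

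The other isozymes of the pathway had calls in both directions, as had all genes tested. Of 18 such genes 17 passed the filter (Pgk2, the testis form, did not). In the Dab2-cKO-labelled libraries 5 were higher and 3 lower (5 and 8 with library size alone), with a median log2 fold change of 0.01. Of all genes tested 16.8% were higher and 11.5% lower, and of the abundant protein-coding genes 37.4% and 23.1%. Library size alone gave 2686 of all 32149 genes as higher and 11168 as lower. The largest rises were in the muscle forms. Eno3, the muscle enolase, had normalized counts of 587, 627 and 580 in the WT-labelled libraries and of 2947, 3072 and 2834 in the Dab2-cKO-labelled ones, a log2 fold change of 2.30 (SE 0.07, adjusted p = 7.07e-39 in edgeR). Pgam2, the muscle phosphoglycerate mutase, had 317, 427 and 384 against 1895, 1778 and 1755 (log2 fold change 2.26, SE 0.08, adjusted p = 7.04e-36 in edgeR). The groups of both genes were far apart. In the same libraries 9 of 10 skeletal muscle markers were higher, with a median log2 fold change of 2.48, and their part in these values was not tested. Exons of Dbnl on the other strand cover the whole canonical transcript of Pgam2.

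The forms of the same steps found in most tissues did not pass after TMM scaling, but with library size alone Eno1 (-0.42, adjusted p = 2.22e-07 in edgeR) and Pgam1 (-0.43, adjusted p = 0.000652 in edgeR) were lower. With TMM scaling Eno1 had 726 ± 26.6 and 732 ± 32.8 normalized counts (log2 fold change 0.01, 95% interval -0.14 to 0.17, adjusted p = 0.933 in edgeR). Pgam1 had 263 ± 29.8 and 262 ± 22.6 (log2 fold change -0.01, 95% interval -0.23 to 0.22, adjusted p = 0.978 in edgeR). Per kb, Eno3 thus went from 44.3% ± 0.868 to 79.7% ± 0.730 of the enolases and Pgam2 from 74.6% ± 1.47 to 93.5% ± 0.302 of the mutases (SD, n = 3 each, not tested). Eno1b, near-identical to Eno1, had a log2 fold change of -0.07, and Eno2, the neuronal enolase, one of 0.08, and neither passed. Triosephosphate isomerase, with Tpi1 as its only gene, rose by 1.29 on the log2 scale (SE 0.09, adjusted p = 1.51e-18 in edgeR).

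The 3 isozymes that were lower were Adpgk, which phosphorylates glucose with ADP (log2 fold change -0.38, adjusted p = 0.00296 in edgeR), Bpgm, which makes 2,3-bisphosphoglycerate (-0.55, adjusted p = 7.84e-05 in edgeR), and Pklr, the pyruvate kinase of liver and red cells (-0.96, adjusted p = 0.00228 in edgeR). Hk3, Hkdc1, Aldoc, Gapdhs and Ldhc did not pass, with log2 fold changes from -0.38 to 0.37. Summed over its listed isozymes per kb, each of the 11 steps from hexokinase to lactate dehydrogenase had a higher mean level in the Dab2-cKO-labelled libraries, which was not tested, by a ratio from 1.52 at phosphoglycerate kinase to 3.85 at phosphoglycerate mutase.

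Genes around glucose uptake and lactate export were more often higher than lower. Of 16 genes for transport and for fructose 2,6-bisphosphate, the activator of phosphofructokinase, 8 were higher and 1 was lower (6 and 4 with library size alone). Among the abundant protein-coding genes 37.4% were higher and 23.1% lower. Library size alone gave 2686 of all 32149 genes as higher and 11168 as lower. Slc2a4, the insulin-responsive glucose transporter of muscle and fat, rose from 150 ± 7.82 to 407 ± 14.0 (log2 fold change 1.44, adjusted p = 2.51e-18 in edgeR). Among the monocarboxylate transporters, Slc16a3 (1.25, adjusted p = 9.05e-10 in edgeR) and Slc16a1 (1.11, adjusted p = 2.81e-13 in edgeR) were higher on the log2 scale and Slc16a7 was lower (-1.71, adjusted p = 1.52e-26 in edgeR). Slc2a1, the basal glucose transporter of keratinocytes, had a log2 fold change of 0.02 and did not pass (adjusted p = 0.951 in edgeR). That gene falls outside the rule for named genes and was chosen after its values were seen.

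Genes that decide the fate of pyruvate were mostly higher, 9 of 14 with 1 lower (6 and 4 with library size alone). Beside the lists of this paragraph stand the abundant protein-coding genes, of which 37.4% were higher and 23.1% lower in the main comparison. Of all 32149 genes, 2686 were higher and 11168 lower with library size alone. For upper-quartile scaling these numbers were 4281 and 5561. Pdk4, a kinase that shuts the pyruvate dehydrogenase complex, rose from 117 ± 10.9 to 903 ± 43.6 (log2 fold change 2.95, SE 0.10, adjusted p = 1.09e-37 in edgeR). Pdk2, another such kinase (1.33), and Mpc1, part of the mitochondrial pyruvate carrier (0.96), were higher too, and Pdp2, a phosphatase that reopens the complex, was lower (-0.94). Of 15 genes of the tricarboxylic acid cycle, 13 were higher and 0 lower, with a median log2 fold change of 0.45, but with library size alone 1 was higher and 3 lower. The largest rises were those of Sdhd (0.81), Idh3b (0.59) and Sdhc (0.59). In the pentose phosphate pathway 1 of 8 was higher (H6pd, 0.89) and 1 lower (G6pdx, its first enzyme in the cytosol, -0.88), with a median of -0.04, but 6 were lower with library size alone and 4 with upper-quartile scaling.

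Gluconeogenesis and glycogen genes held the widest changes of the pathway lists, with 9 of 14 higher and 2 lower (8 and 4 with library size alone). The shares among the abundant protein-coding genes were 37.4% and 23.1% in the main comparison. Library size alone gave 2686 of all 32149 genes as higher and 11168 as lower. Fbp1, which opposes phosphofructokinase, had 465 ± 25.6 normalized counts in the WT-labelled libraries and 30.0 ± 4.47 in the Dab2-cKO-labelled ones, 15.4-fold lower (log2 fold change -3.94, SE 0.15, adjusted p = 5.42e-35 in edgeR). Pck1, which feeds carbon into gluconeogenesis and glycerol synthesis, rose 8.02-fold, from 152 ± 15.5 to 1222 ± 23.5 (adjusted p = 9.04e-41 in edgeR). Pygm, the muscle glycogen phosphorylase, rose by 2.02 on the log2 scale, and its share among the 3 phosphorylases per kb went from 55.2% ± 2.10 to 81.4% ± 0.141 (SD, n = 3 each, not tested). The phosphoglucomutase genes moved apart, with ENSMUSG00000025791 (Pgm2 in the count table, Pgm1 in GENCODE M39) at 1.84 and ENSMUSG00000029171 (Pgm1 in the count table, Pgm2 in GENCODE M39) at -1.27.

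Of 22 genes for hypoxia-inducible factors, their regulators and their targets outside glycolysis, 13 were higher and 3 lower, but with library size alone 5 were higher and 6 lower. In the main comparison 37.4% of the abundant protein-coding genes were higher and 23.1% lower. Library size alone gave 2686 of all 32149 genes as higher and 11168 as lower. Bnip3, a mitophagy receptor (log2 fold change 1.90), Epas1, which encodes HIF-2α (1.73), and Vegfa, an angiogenic factor (1.27), rose most. The 3 that were lower were Egln3 (-0.48), Car12 (-0.47) and Bnip3l (-0.28). Hif1a had a log2 fold change of 0.17 and did not pass (adjusted p = 0.0775 in edgeR), and it too was chosen after its values were seen.

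**Figure D5:**
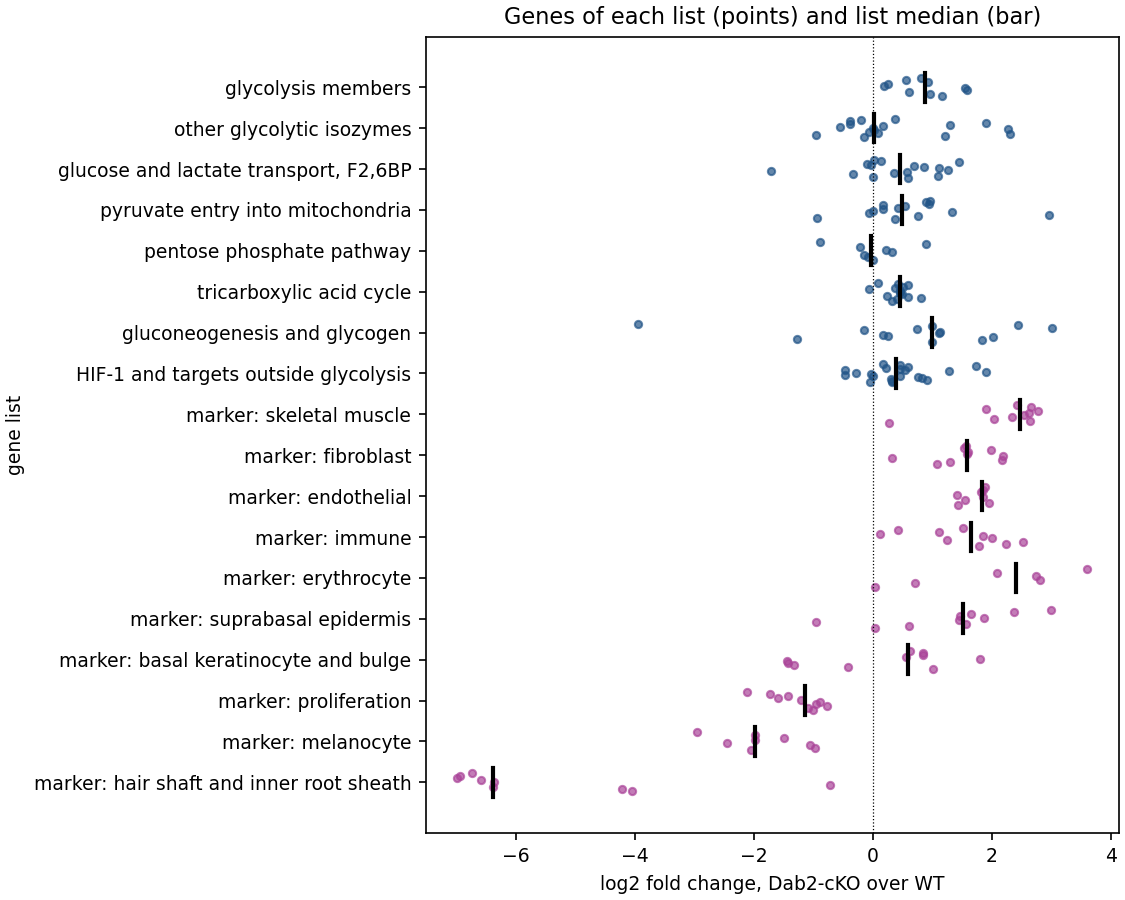
Log2 fold change of every tested gene of the pathway lists (blue) and marker lists (purple), with the median of each list as a bar. The 10 enzymes have a median of 0.87, between those of the other isozymes (0.01) and of the fibroblast (1.57) and skeletal muscle (2.48) markers. The listed markers of basal keratinocytes and the bulge, 6 higher and 4 lower with Tcf3 counted, have a median of 0.58, and the hair shaft markers lie lowest.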

How the data were processed

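RNA of FACS sorted HFSCs was sequenced by the authors in 3 libraries labelled WT and 3 labelled Dab2-cKO (SMARTer Stranded total RNA-seq pico kit, paired-end reads of 150 bases). The authors trimmed reads with fastp 0.23.4, aligned them to GRCm39 with HISAT2 2.2.1 and obtained counts per gene with featureCounts 2.0.6, which they deposited as raw counts. Whether counting used strand, how multi-mapping reads and molecular identifiers were handled, and which annotation release was used are not given in the sources used here. A second deposited table holds fold changes and p-values of the authors' own DESeq2 comparison and was not used. The labels call the libraries biological replicates and do not say how many mice each came from.

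Counts (7040032 to 11696457 per library) were filtered by edgeR 4.0.16 in R 4.3.3 with its default expression filter, scaled by TMM and compared by the quasi-likelihood test (robust) without covariates, with Benjamini-Hochberg adjustment over all 32149 genes tested and a threshold of 0.05. A normalized count is the count over the effective size of its library, times the mean effective size, and levels per kb use the Ensembl canonical transcript of GENCODE M39 on GRCm39. Of the genes in the table, 56323 matched this annotation. Fold changes are those of Dab2-cKO over WT. A gene at 0 may hold up to 3 counts, or 2.56e-05% to 4.26e-05% by library, which covers counting error only. Isozyme shares were compared by an exact permutation test.

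The 10 enzymes and the lists were chosen with earlier results of these data known. Named are the 10 enzymes, Dab2, the other listed glycolytic isozymes and the abundant genes of each pathway list with the 3 largest rises and falls among those that passed. Also named are the 3 most abundant genes of a marker list and the 5 genes most like Ldha. Alternatives were DESeq2 1.42.0, other scalings and filters, GC and length offsets (loess in limma 3.58.1), a replicate block, and each library left out in turn. Promoter windows were read from the GRCm39 genome. Some genes of these pathways are not reported here and were left out of the lists and sums.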

Additional observations from a re-analysis of the deposited data

How the results depend on the processing

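All 10 enzymes were recomputed under 16 alternatives, and Gapdh under a further one. Of the 8 that were higher, 7 passed under each of them, and Hk2 under 15 of 16. With library size alone, which lowered the median of all genes by over 0.1, Hk2 was at 0.12 (edgeR's adjusted p = 0.147), Pfkl at -0.18 (0.238), Pfkp at -0.24 (0.00681), 1 enzyme was lower and the median of the enzymes was 0.44, against 0.73 with upper-quartile scaling. With library size alone 13854 genes passed, against 9069 in the main comparison, 7955 with DESeq2 and 7996 to 8546 with a library left out. Of all genes, 11168 were lower with library size alone and 5561 with upper-quartile scaling, against 3682 in the main comparison. Scaling by library size alone also gave, as genes lower, 8 of the other isozymes, 4 for transport, 4 for pyruvate entry and 6 of the pentose phosphate pathway. It likewise gave 3 of the tricarboxylic acid cycle (1 higher), 4 of gluconeogenesis and glycogen and 6 of the HIF list (5 higher). For transport, 2 genes were lower with upper-quartile scaling, protein-coding genes alone, no filter, a mean count minimum of 50, and GC and length offsets, and 1 to 2 with a library left out. For the pentose phosphate pathway, 4 were lower with upper-quartile scaling, 2 with protein-coding genes alone and with a mean count minimum of 50, and 1 to 2 were higher and 1 to 2 lower with a library left out. For the tricarboxylic acid cycle, 1 was lower with upper-quartile scaling, protein-coding genes alone and a mean count minimum of 50.

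Signs turned for isozymes that never passed in the main comparison. With library size alone these were Hk3 (-0.053), Gapdhs (-0.26), Eno1 (-0.42, edgeR's adjusted p = 2.22e-07) and Eno2 (-0.35). Eno1 was at -0.13 with upper-quartile scaling, -0.068 with protein-coding genes alone, -0.073 with a mean count minimum of 50, -0.020 without a filter, and -0.091 with GC and length offsets or -0.093 with these and the replicate block. Eno2 was at -0.063 with upper-quartile scaling, -0.0012 with protein-coding genes alone and -0.0054 with a mean count minimum of 50. With a library left out, Hkdc1 ranged from -0.49 to 0.080, Pgam1 from -0.098 to 0.10, Eno1 from -0.041 to 0.039, Eno1b from -0.14 to 0.0059 and Eno2 from -0.050 to 0.21. The 10 enzymes kept their signs with a library left out. The causes of these changes were not tested.

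The share of Aldoa differed by 1.47 percentage points from counts not divided by length and by 1.68 per kb of merged exons, against 0.81, and that of Pfkp by -17.2 per kb of merged exons, against -20.6. The summed share of the enzymes had a ratio of 1.96 among protein-coding nuclear counts, against 1.70. The merged exons and the sum of Gapdh with its pseudogenes were chosen after seeing the data. Same-numbered libraries of the genotypes had correlations of their deviations from the group means of 0.14, -0.05 and 0.11 over 10846 genes. Not every library correlated best with its own number. With 3 libraries per group such deviations cancel out within a group, so these correlations are tied together and cannot settle whether the numbers pair the libraries. With the replicate block 8967 genes passed and the same number of enzymes, 8, was higher.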
